A study of Mus musculus with 9 samples.

Results

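The 8 genes described here, Gcg, Ttr, Irx1, Irx2, Pou3f4, Etv1, Slc7a2 and Slc38a5, are markers of alpha cells, the glucagon-producing cells of the pancreatic islet. They were chosen by their symbols from 22048 genes counted, with no threshold on a measured value, though earlier results of these data were known. The RNA came from islets of ICR mice (an outbred stock) kept for 3 days in RPMI medium with fetal bovine serum at 11.8 mM glucose (the control), 20 mM or 35 mM. Each concentration had 3 libraries, named here by concentration and replicate number. The islets came from 9 mice, but the labels do not say that each library came from separate mice, so the p-values rest on the spread among these libraries, part or all of which may be technical. The titles, sample characteristics and series design give 35 mM for the highest concentration, which is followed here, whereas the treatment text gives 25 mM.

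Alpha cells release glucagon when blood glucose is low, and the hormone raises the output of glucose by the liver. Glucagon is cut from proglucagon, the product of Gcg, and in mature alpha cells this cut is made mainly by the convertase encoded by Pcsk2. The identity of the cells rests on a set of transcription factors, and amino acids, which enter through transporters, also drive glucagon release and alpha cell growth. A rise of glucose from low levels lowers glucagon release from healthy islets, which RNA counts do not measure. The series asks how the islet program responds to raised and extreme glucose, and its comparisons are given here for the alpha cell markers.

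The libraries held 3228648 to 4559561 gene counts, with 13366 to 13923 genes detected. Beta cell markers, mainly Ins1 and Ins2, summed to 449288 to 652890 CPM (a gene's count scaled to the size of its library, with TMM factors) over the 9 libraries, as islets mostly consist of beta cells. The 8 alpha cell genes took 1.41% to 2.04% of the gene counts of a library, and each had counts in every library. In RNA of whole islets, fewer alpha cells and less RNA per alpha cell cannot be told apart. Among the beta cell markers Mafa, a transcription factor of mature beta cells, had 1 count in all 9 libraries together. The annotation used for counting is not given in the sources used here, so this count cannot show that Mafa was absent. Acinar markers, which come from the exocrine tissue around islets, summed to 3385 to 11887, 6660 to 11399 and 6220 to 9918 CPM at the 3 concentrations, and their part in the results below was not tested except where a fit with an acinar term is given. Fibroblast and stellate cell markers summed to 356 to 600.2, 270.2 to 391 and 240.2 to 444 CPM, and macrophage and other immune markers to 112 to 134, 93.7 to 109 and 82.5 to 156 CPM, and their part was not tested.

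Of the 8 genes, all passed the expression filter, and 9739 genes were tested in all. Ttr rose at 35 mM and at 20 mM relative to 11.8 mM, while the other 7 genes did not pass the test in any comparison. At 35 against 11.8 mM 1 of the 8 was called, beside 0.863% of all genes tested, of which 0.626% rose and 0.236% fell. At 20 against 11.8 mM 1 of the 8 was called, beside 0.185% of all genes (0.154% rising), and at 35 against 20 mM 0 of the 8, beside 0.0308% of all genes. A call is a p under 0.05 in the quasi-likelihood test of edgeR after Benjamini-Hochberg adjustment over all genes tested. The median log2 fold change of the 8 genes was -0.23, -0.07 and -0.09 in these comparisons, and that of all genes tested was -0.0027, -0.0016 and -0.0012. Values below 0 were found in 6, 5 and 7 of the 8 genes.

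Ttr encodes transthyretin, a secreted carrier of thyroid hormone and of retinol bound to its binding protein, which is abundant in alpha cells and is also made by other islet cells, liver and choroid plexus. Its level at 11.8 mM was 910.1, 962 and 939.8 CPM in replicates 1, 2 and 3. At 20 mM the same gene stood at 1563, 1288 and 1397 CPM, and at 35 mM at 1280.5, 1497 and 1708 CPM. Every library at raised glucose lay above every library at 11.8 mM, whereas the libraries at 20 and 35 mM overlapped. The mean level of Ttr was 937 ± 25.9 CPM at 11.8 mM, 1416 ± 139 CPM at 20 mM and 1495 ± 214 CPM at 35 mM (SD, n = 3 each). At 35 mM Ttr thus rose by 0.67 ± 0.13 on the log2 scale (SE; 95% interval 0.40 to 0.94; edgeR, adjusted p = 0.00527). At 20 mM the rise was 0.60 ± 0.13 (95% interval 0.33 to 0.86; edgeR, adjusted p = 0.0489). The difference between 35 and 20 mM was 0.08 ± 0.13, with an interval from -0.19 to 0.35.

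The 2 calls of Ttr differed in how far they held under other settings. At 35 against 11.8 mM the call was kept in 19 of 21 alternatives, with log2 fold changes of 0.48 to 0.84. It was lost without 35 mM replicate 3, the library with the highest Ttr level (0.57; adjusted p = 0.0617), and with sub-library set 1 alone (0.48; adjusted p = 0.351). At 20 against 11.8 mM the call was kept in 5 of 21 alternatives, with log2 fold changes of 0.39 to 0.73 and adjusted p from 5.83e-05 to 0.431. Leaving out any 1 of the 9 libraries ended it, the adjusted p by edgeR then lying between 0.0516 and 0.352. With an acinar score as a covariate Ttr stood at 0.67 (adjusted p = 0.0169) at 35 mM and at 0.59 (adjusted p = 0.201) at 20 mM.

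**Figure D1:**
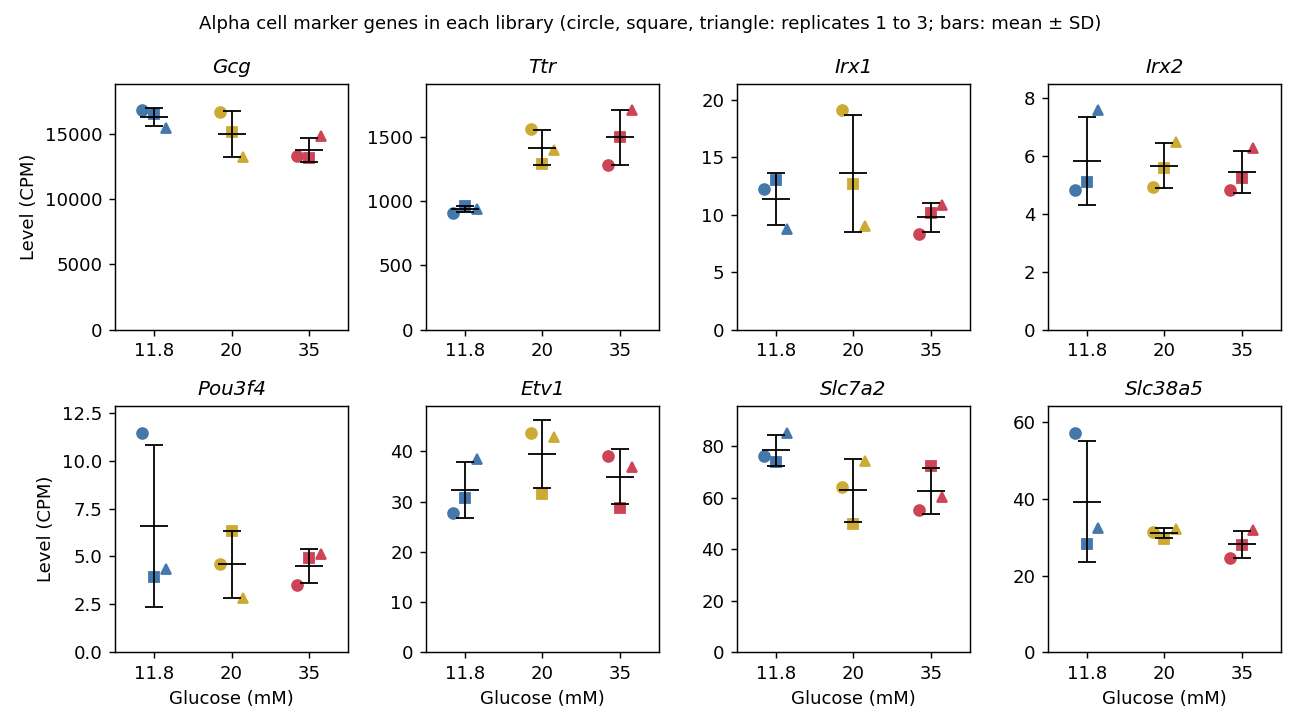
Level of each of the 8 genes in CPM (linear axis from 0) at 11.8, 20 and 35 mM glucose. Circles, squares and triangles are the libraries of replicates 1 to 3, and bars give the mean and SD of 3 libraries. Ttr lies between 910.1 and 962 CPM at 11.8 mM and above 1280 CPM in all 6 other libraries, while Slc38a5 and Pou3f4 each have a single high library, 11.8 mM replicate 1.

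Of 4 markers of cells outside the islet that make much transthyretin, Alb, Apoa1 and Kl were near 0, the highest values in any library being 1.13, 1.42 and 1.26 CPM. The folate receptor gene Folr1 stood at 12.5 to 20.1 CPM at 11.8 mM, 18.95 to 21.9 at 20 mM and 13.9 to 20.03 at 35 mM. The 4 markers summed to 14.9 to 21.5, 22.2 to 24.02 and 16.2 to 20.3 CPM, most of it from Folr1. These sums overlapped between 35 and 11.8 mM and did not between 20 and 11.8 mM. Which cells the Folr1 counts came from was not tested, so the sums cannot be read as a level of cells outside the islet. The part of cells with Folr1 in the change of Ttr was not tested. Among beta cell markers Iapp, which encodes islet amyloid polypeptide, rose at 35 mM as Ttr did. Its log2 fold change was 0.63 (edgeR, adjusted p = 0.00865), between mean levels of 13710.5 ± 434 and 21159 ± 564 CPM. At 20 mM Iapp had 0.39 (adjusted p = 0.340). Of 9 beta cell markers tested at 35 mM only Iapp was called, beside 0.863% of all genes. An unadjusted p under 0.05 was found for 4 of the 9, beside 10.5% of all genes. The list had 5 values above and 4 below 0 and a median of 0.0025. Ucn3 and Slc30a8, genes of mature beta cells, both had -0.42 (adjusted p = 0.178 and 0.167). In the other direction, G6pc2 had 0.58 (edgeR, adjusted p = 0.0814), while Nkx6-1 had 0.13 and Pdx1 0.0025. The part of beta cell RNA in the change of Ttr was not tested.

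Gcg, the gene of proglucagon, stood at 16856, 16540.1 and 15502 CPM in the 11.8 mM libraries. At 20 mM it stood at 16718, 15130.2 and 13233 CPM, and at 35 mM at 13316, 13185 and 14850 CPM. All 3 libraries at 35 mM lay below all 3 at 11.8 mM, whereas those at 20 mM reached from below the 35 mM mean to above the 11.8 mM mean. The log2 fold change at 35 against 11.8 mM was -0.24 ± 0.13 (95% interval -0.51 to 0.03; edgeR, adjusted p = 0.556), between means of 16299.6 ± 708 and 13784 ± 926 CPM (SD, n = 3). Between 20 and 11.8 mM it was -0.12 ± 0.13 and at 35 against 20 mM -0.12 ± 0.13, with intervals from -0.39 to 0.15 and from -0.40 to 0.15. In each comparison the value kept its sign in all 21 alternatives, with a range of -0.30 to -0.21 at 35 against 11.8 mM. Libraries that did not overlap were found for 3 of the 8 genes at 35 against 11.8 mM (Ttr above, Gcg and Slc7a2 below), beside 14.9% of all genes tested. This was so for 1 of 8 at 20 against 11.8 mM, beside 12.8%, and for 0 of 8 at 35 against 20 mM, beside 11.9%.

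Within a library the level of one gene can be set against another without scaling. Ttr had 5.40, 5.81 and 6.06 counts per 100 Gcg counts at 11.8 mM, 9.35, 8.51 and 10.6 at 20 mM, and 9.62, 11.4 and 11.5 at 35 mM. The ratio was higher in every library at raised glucose than in any at 11.8 mM, by 0.91 on the log2 scale (1.88-fold) at 35 mM and by 0.71 (1.64-fold) at 20 mM. An exact two-sided permutation test gave p = 0.1 for both, the smallest that 3 against 3 allows, and an adjusted p of 0.3 over 6 ratio tests. Between 35 and 20 mM the difference was 0.19 (exact permutation p = 0.2, adjusted p = 0.4).

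Set against insulin, Gcg had 3.89, 2.92 and 2.43 counts per 100 counts of Ins1 and Ins2 at 11.8 mM. The values were 3.48, 2.86 and 2.41 at 20 mM and 2.88, 2.31 and 2.97 at 35 mM. These ranges overlapped between all concentrations, and the spread within a concentration exceeded the differences between them, which were -0.16, -0.07 and -0.09 on the log2 scale at 35 against 11.8, 20 against 11.8 and 35 against 20 mM (exact permutation p = 0.5, 0.7 and 0.7; adjusted p = 0.7 for each). Without 11.8 mM replicate 1 the first and second of them became 0.02 and 0.11. The third became 0.04 without 20 mM replicate 1 and 0.02 without 35 mM replicate 2, and the second 0.06 without 20 mM replicate 3. In 2 sub-libraries, 1 of 11.8 mM replicate 1 and 1 of 35 mM replicate 1, an insulin gene took a low share of the counts, namely 11.8% for Ins1 and 10.6% for Ins2. Their part in these insulin ratios is given by the fit without both, in which the log2 differences kept their sign.

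**Figure D2:**
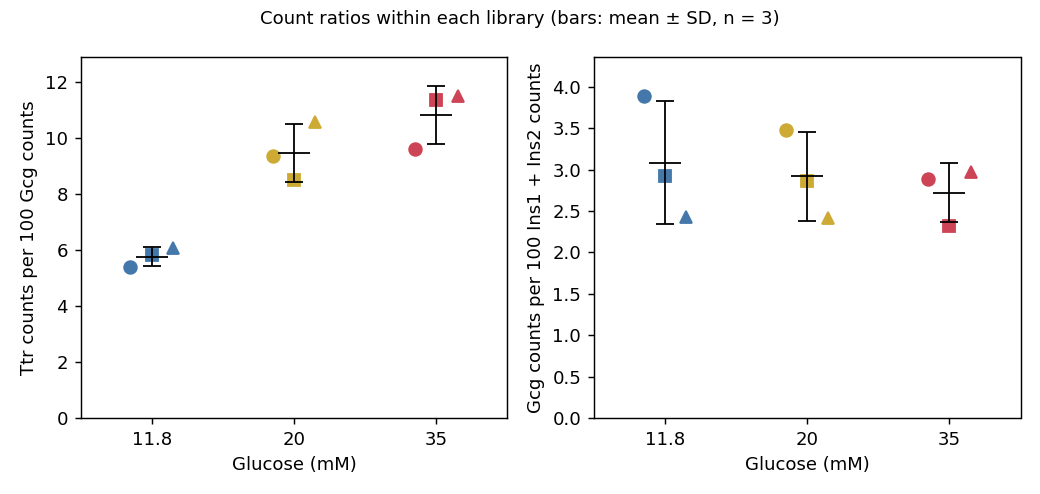
Left, Ttr counts per 100 Gcg counts, and right, Gcg counts per 100 counts of Ins1 and Ins2, in each library by glucose concentration (mM); linear axes from 0. Circles, squares and triangles are replicates 1 to 3, and bars are mean and SD (n = 3). The Ttr ratio is 5.40 to 6.06 at 11.8 mM and 8.51 to 11.5 at raised glucose, while the Gcg ratios overlap.

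Irx1 and Irx2 encode homeobox transcription factors of the Iroquois family, which in the endocrine pancreas are found mainly in alpha cells. Irx1 stood at 12.3, 12.96 and 8.74 CPM at 11.8 mM, at 19.1, 12.6 and 9.02 CPM at 20 mM, and at 8.32, 10.2 and 10.8 CPM at 35 mM. Its libraries overlapped between all concentrations, and 20 mM replicate 1 was the highest of the 9. The log2 fold changes were -0.23 ± 0.27 at 35 against 11.8 mM and 0.24 ± 0.26 at 20 against 11.8 mM, the latter becoming -0.07 without 20 mM replicate 1. The first of them became 0.15 and 0.09 with sub-library set 1 or 2 alone. At 35 against 20 mM Irx1 had -0.47 ± 0.26 (SE; edgeR, adjusted p = 0.932).

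Irx2 stood at 4.80, 5.09 and 7.57 CPM at 11.8 mM, 4.93, 5.56 and 6.49 CPM at 20 mM, and 4.83, 5.23 and 6.25 CPM at 35 mM. These levels rest on 16 to 26 counts per library. For the 18 counts of 11.8 mM replicate 1 the exact Poisson 95% interval was 2.84 to 7.58 CPM, which holds all the other libraries of the gene. It covers the counting error of reads only and can be too narrow for molecules. The log2 fold changes were -0.09 ± 0.31, -0.03 ± 0.31 and -0.06 ± 0.32 at 35 against 11.8, 20 against 11.8 and 35 against 20 mM. The first had an interval of -0.73 to 0.55. Without 11.8 mM replicate 3, its highest library, the first and second became 0.13 and 0.19.

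Pou3f4 encodes a POU domain transcription factor that marks alpha cells in the developing and adult islet. Its levels were 11.5, 3.935 and 4.37 CPM at 11.8 mM, 4.62, 6.32 and 2.82 CPM at 20 mM, and 3.49, 4.94 and 5.11 CPM at 35 mM. The high value belonged to 11.8 mM replicate 1, with 43 counts against 10 to 25 in the other 8 libraries. Its exact Poisson interval of 8.29 to 15.4 CPM overlapped that of 20 mM replicate 2, the next highest, with 4.09 to 9.33 CPM. The log2 fold changes were -0.54 ± 0.39 at 35 against 11.8 mM and -0.50 ± 0.39 at 20 against 11.8 mM, and without that library they became 0.12 and 0.16. At 35 against 20 mM the value was -0.04 ± 0.41.

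Etv1 encodes a transcription factor of the ETS family. It stood at 27.7, 30.8 and 38.5 CPM at 11.8 mM, at 43.7, 31.6 and 42.9 CPM at 20 mM, and at 39.2, 28.7 and 36.9 CPM at 35 mM. All 3 concentrations overlapped. Log2 fold changes were 0.12 ± 0.18 and 0.28 ± 0.18 at 35 and 20 mM against 11.8 mM (adjusted p = 0.890 and 0.729 by edgeR), and -0.17 ± 0.17 between 35 and 20 mM.

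Slc7a2 encodes a transporter of cationic amino acids such as arginine, which stimulates glucagon release. It stood at 76.2, 74.1 and 85.4 CPM at 11.8 mM, at 64.4, 50.03 and 74.4 CPM at 20 mM, and at 55.3, 72.6 and 60.2 CPM at 35 mM. The 35 mM libraries lay below those at 11.8 mM, by a small gap between 72.6 and 74.1 CPM, and 20 mM replicate 3 lay within the 11.8 mM range. The log2 fold change was -0.32 ± 0.15 at 35 against 11.8 mM (95% interval -0.63 to -0.02; edgeR, adjusted p = 0.445). The value at 20 against 11.8 mM was -0.32 ± 0.15 as well (edgeR, adjusted p = 0.603). Both values stayed below 0 in all 21 alternatives. Exons of Slc7a2 overlap the gene Gm26584 on the opposite strand in GENCODE M21, which may differ from the annotation used for counting. Gm26584 was not found by its symbol among the genes counted. Since no source used here gives the counting strand, the counts of Slc7a2 are uncertain to that extent.

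Slc38a5 encodes a transporter of neutral amino acids including glutamine, known in mice for its rise in alpha cells when glucagon signalling is blocked. Its levels were 57.3, 28.2 and 32.3 CPM at 11.8 mM, 31.4, 29.6 and 32.1 CPM at 20 mM, and 24.7, 27.9 and 31.8 CPM at 35 mM. Apart from 11.8 mM replicate 1 the libraries lay between 24.7 and 32.3 CPM. The log2 fold change at 35 against 11.8 mM was -0.48 ± 0.20 (95% interval -0.90 to -0.06; edgeR, adjusted p = 0.391), and it was -0.11 (adjusted p = 0.888) without that library. For 20 against 11.8 mM it was -0.34 ± 0.20 (adjusted p = 0.719), and 0.03 without that library. An unadjusted p under 0.05 was found for 3 of the 8 genes at 35 against 11.8 mM (Ttr, Slc7a2 and Slc38a5), beside 10.5% of all genes. It was found for 2 of 8 at 20 against 11.8 mM (Ttr and Slc7a2), beside 7.97%, and for 0 of 8 at 35 against 20 mM, beside 5.29%. The DESeq2 Wald test also called none of the 8 between 35 and 20 mM.

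**Figure D3:**
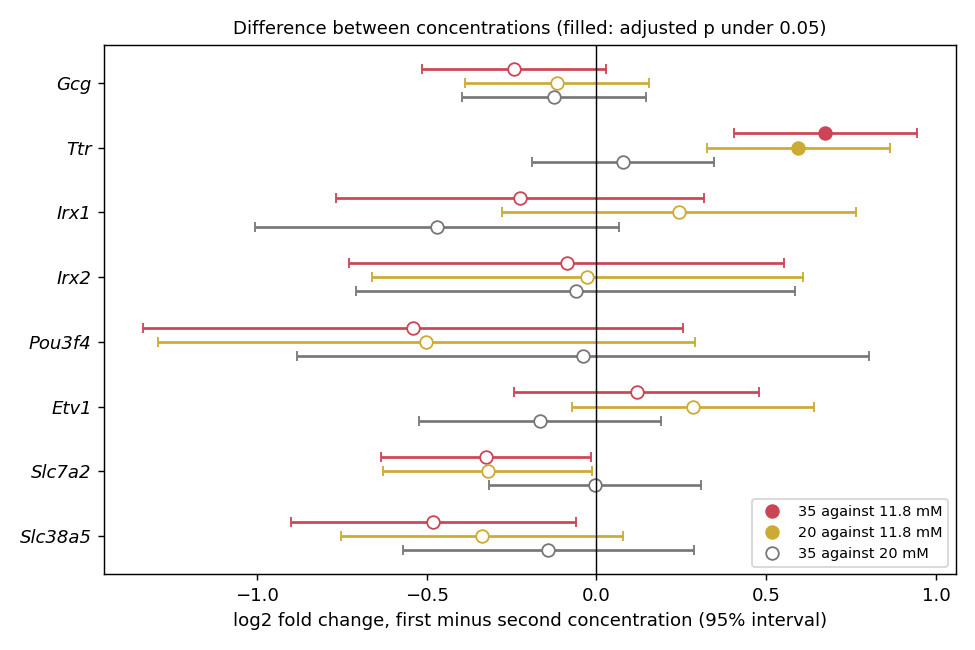
Log2 fold change of each gene with its 95% interval in the 3 comparisons, first concentration minus second; the vertical line marks 0. Filled points have an adjusted p under 0.05 by edgeR over all genes tested, which holds for Ttr at 35 (0.67) and 20 mM (0.60) against 11.8 mM.

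Every library was the sum of 3 barcoded sub-libraries of 1 sample, which are not separate islet cultures. Slc38a5 was high in all 3 sub-libraries of 11.8 mM replicate 1, at 53.8 to 76.1 CPM of the sub-library, against at most 42.2 CPM in the 24 others. Pou3f4 stood at 11.8 to 15.2 CPM in the same 3 and at 0 to 9.37 CPM in the others. The tops of both ranges, 76.1 and 15.2 CPM, came from set 3, the sub-library of that sample with the low Ins1 share. In it 35.2% of reads did not align uniquely, against 13.3% and 15.2% in sets 1 and 2. In sets 1 and 2 Slc38a5 stood at 53.8 and 65.9 CPM and Pou3f4 at 12.5 and 11.8 CPM. The high values of these genes were thus repeated within that sample. Ttr lay at 836 to 1217 CPM in the sub-libraries at 11.8 mM, at 1179 to 1796 at 20 mM and at 1133 to 1864 at 35 mM. Here the highest sub-library at 11.8 mM, in replicate 1, overlapped the lowest at raised glucose. It is the sub-library of that sample with the low Ins1 share, and without it the highest at 11.8 mM was 983 CPM, below all those at raised glucose. The coefficient of variation among the sub-libraries of a library had a median of 4.66% for Gcg and 9.33% for Ttr, and of 19.1% to 38.1% for the 6 others, which have fewer counts.

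**Figure D4:**
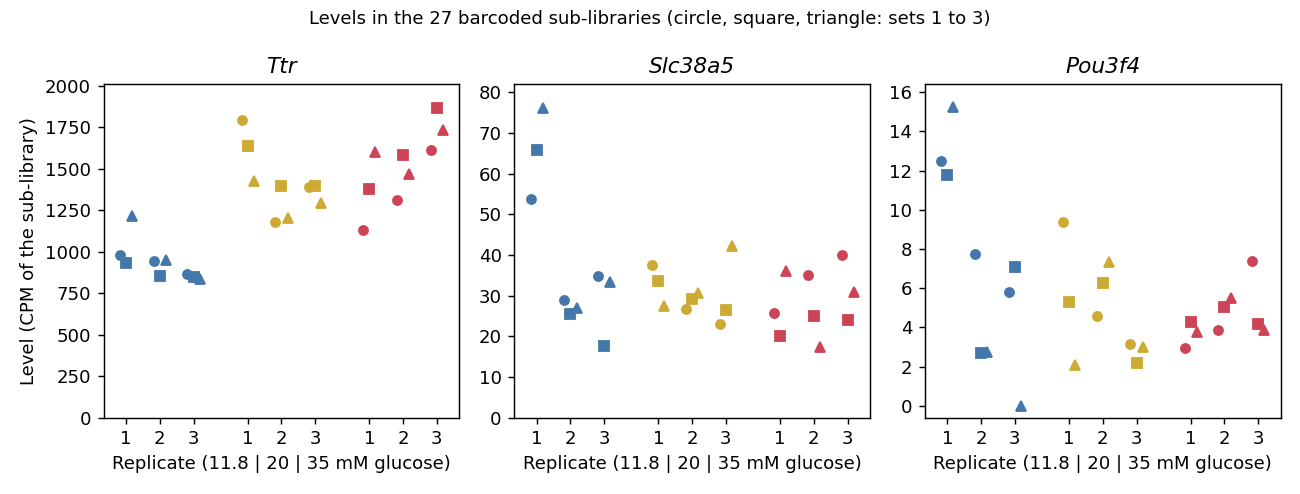
Level of Ttr, Slc38a5 and Pou3f4 in the 27 barcoded sub-libraries, in CPM of the sub-library, by replicate within 11.8, 20 and 35 mM glucose from left to right. Circles, squares and triangles are sets 1 to 3. The 3 sub-libraries of 11.8 mM replicate 1 are the highest for Slc38a5 (53.8 to 76.1) and Pou3f4 (11.8 to 15.2), and Ttr is 836 to 1217 at 11.8 mM.

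Over the 9 libraries, correlations between pairs of the 8 genes ran from -0.67 (Pou3f4 and Etv1) to 0.79. Log2 levels of Gcg and Ttr had a Pearson correlation of -0.47, those of Gcg and Irx1 of 0.72, those of Pou3f4 and Slc38a5 of 0.79 and those of Irx1 and Irx2 of -0.48. These 9 points share their concentrations and their scaling by library, and the high value for Pou3f4 and Slc38a5 includes 11.8 mM replicate 1. As a share of the counts of the 8 genes, Gcg took 93.3% to 93.9% at 11.8 mM, 89.4% to 91.4% at 20 mM and 88.9% to 90.4% at 35 mM. Ttr took 5.07% to 5.66%, 7.78% to 9.44% and 8.69% to 10.2%, and the other 6 genes together 0.820% to 1.13% in any library.

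The genes most like Ttr and Gcg were taken as the 5 with the highest Pearson correlation of log2 CPM over the 9 libraries, among 5325 genes whose mean reached 10 CPM. For Ttr they were Manf (0.97), a secreted factor of the endoplasmic reticulum, Ssr2 (0.96) and Ssr4 (0.95), subunits of the translocon-associated protein complex, Pcsk1 (0.95), a prohormone convertase, and Mycbp (0.94), a Myc-binding protein. Of these, Pcsk1 rose at 35 mM (0.68; adjusted p = 0.005) and at 20 mM (0.75; adjusted p = 0.00543) and Mycbp at 35 mM (0.73; adjusted p = 0.021). Manf had log2 fold changes of 0.39 and 0.41 at 35 and 20 mM against 11.8 mM and was not called. For Gcg they were Nampt (0.98), an enzyme of NAD synthesis, Onecut2 (0.93), a transcription factor, Anapc5 (0.93), a subunit of the anaphase-promoting complex, Top2a (0.93), the topoisomerase of dividing cells, and Cfl2 (0.91), an actin-binding protein. None of these was called in any comparison. In the order named, their log2 fold changes at 35 against 11.8 mM were -0.30, -0.92, -0.16, -0.64 and -0.19. Those at 20 against 11.8 mM were -0.15, -0.40, -0.06, -0.20 and -0.09. These correlations are over points that share the concentrations and describe these libraries only. Since the genes were chosen by likeness to Ttr or Gcg in these same libraries, changes like theirs follow in part from the choice.

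**Figure D5:**
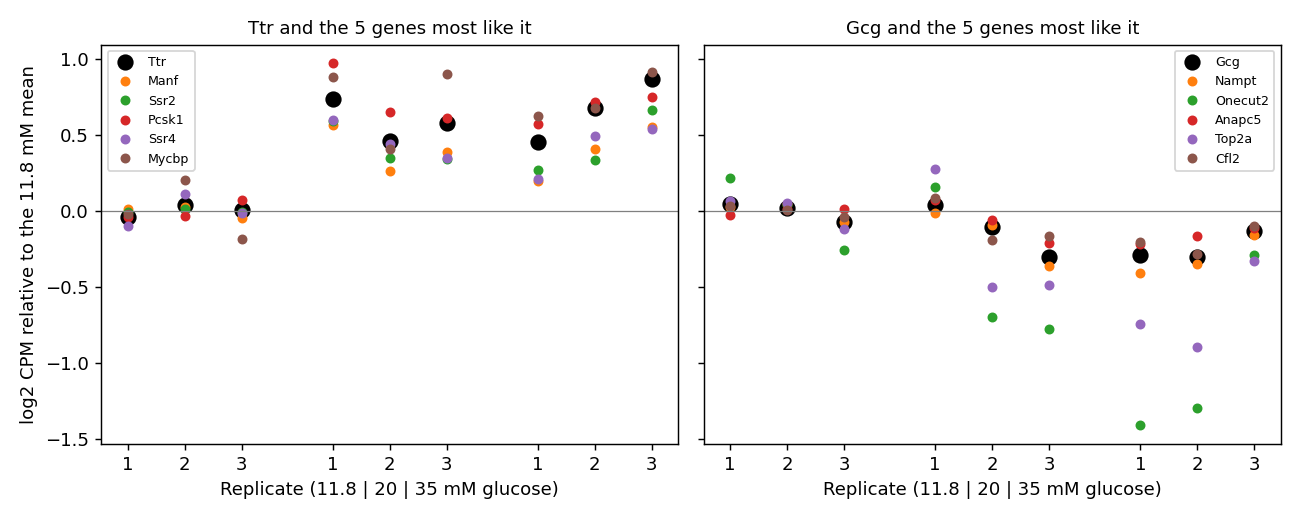
Log2 CPM of Ttr (left) and Gcg (right), in black, and of the 5 genes most like each, in colour, relative to the gene's mean at 11.8 mM, by replicate within 11.8, 20 and 35 mM. Points are single libraries. Ttr and the 5 genes most like it lie above 0 in all 6 libraries at raised glucose, and Gcg and the genes most like it lie below 0 at 35 mM. The genes were chosen for this likeness in the same libraries.

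Of 11 further genes enriched in alpha cells 10 were tested, and none was called in any comparison, beside 0.863%, 0.185% and 0.0308% of all genes at 35 against 11.8, 20 against 11.8 and 35 against 20 mM. An unadjusted p under 0.05 was found for 5, 3 and 1 of the 10, beside 10.5%, 7.97% and 5.29% of all genes. Closest to a call at 20 against 11.8 mM were Gc, the vitamin D binding protein (0.67 ± 0.16; adjusted p = 0.0646 by edgeR), and Tm4sf4, a tetraspanin-like membrane protein (0.57 ± 0.14; adjusted p = 0.0983). At 35 mM the smallest p-values belonged to Peg3, an imprinted zinc finger gene (-0.42 ± 0.14; adjusted p = 0.197), and Smarca1, a chromatin remodeller (-0.51 ± 0.17; adjusted p = 0.222), while Gc and Tm4sf4 had 0.44 ± 0.16 and 0.37 ± 0.14 (adjusted p = 0.259 and 0.334). The list thus had values in both directions at 35 mM, with 4 above and 6 below 0 and a median of -0.06. Between 35 and 20 mM all 10 had values below 0, with a median of -0.20.

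Transcription factors that alpha cells share with other islet cells were not called in any comparison, with 7 of 8 tested by edgeR. Of all genes tested 0.863%, 0.185% and 0.0308% were called at 35 against 11.8, 20 against 11.8 and 35 against 20 mM. An unadjusted p under 0.05 was found in 1, 0 and 1 of the 7, beside 10.5%, 7.97% and 5.29% of all genes. The median of the 7 was -0.02 at 35 and at 20 against 11.8 mM. Isl1, which alpha and beta cells need for their hormone genes, had -0.35 ± 0.14 at 35 against 11.8 mM (adjusted p = 0.336 by edgeR), with 64.8 ± 3.75 and 50.9 ± 3.25 CPM. Foxa1, an activator of Gcg, had 2 counts in all 9 libraries.

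The genes that process proglucagon and form secretory granules included called members. Of 10 tested, 3 rose and none fell at 35 against 11.8 mM, and 2 rose and none fell at 20 against 11.8 mM. Of all genes tested 0.626% rose and 0.236% fell in the first comparison, and 0.154% rose and 0.0308% fell in the second. At 35 against 20 mM 0 of the 10 were called, beside 0.0308% of all genes, with 5 values above and 5 below 0. The unadjusted p by edgeR was under 0.05 for 5, 4 and 0 of the 10, beside 10.5%, 7.97% and 5.29% of all genes. Chgb, a granule protein, rose from 872 ± 111 to 1441 ± 57.5 CPM at 20 mM (log2 fold change 0.73) and 1501 ± 114 at 35 mM (0.78; adjusted p = 7.84e-04 by edgeR). Pcsk1, which cuts proglucagon to GLP-1 and proinsulin to insulin, rose from 124 ± 5.58 to 209.7 ± 30.0 and 199 ± 12.7 CPM. Scg3, which binds granule proteins to the membrane, rose at 35 mM (0.59; adjusted p = 0.0129) and had 0.47 at 20 mM (adjusted p = 0.153). Pcsk2, the convertase that makes glucagon, was not called, with 0.27 ± 0.13 at 35 mM and 0.17 ± 0.13 at 20 mM. These genes are active in beta cells as well, and their cell of origin cannot be told apart in whole islets.

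The receptors of glucagon and related hormones and their signalling genes were not called in any comparison, with 6 of 8 tested. Of all genes tested 0.863%, 0.185% and 0.0308% were called at 35 against 11.8, 20 against 11.8 and 35 against 20 mM. An unadjusted p under 0.05 was found in 1, 0 and 0 of the 6, beside 10.5%, 7.97% and 5.29% of all genes. Gnas, the stimulatory G protein, had 0.44 ± 0.13 at 35 against 11.8 mM (adjusted p = 0.138 by edgeR). Gcgr, the glucagon receptor, stood at 6.95 ± 1.21, 8.27 ± 2.49 and 9.78 ± 2.09 CPM at the 3 concentrations. Partners of transthyretin and genes of retinoid handling were not called either, with 7 of 11 tested, beside the same shares of all genes. An unadjusted p under 0.05 was found in 1, 0 and 0 of the 7, again beside 10.5%, 7.97% and 5.29% of all genes. Their medians were -0.07 and -0.14 at 35 and 20 mM against 11.8 mM. Rbp4, the retinol-binding protein that circulates with transthyretin and is also a delta cell gene, had -0.32 ± 0.13 at 35 mM (adjusted p = 0.388), with 286 ± 20.8 CPM at 11.8 mM and 229.7 ± 40.8 at 35 mM. Ttr and Rbp4 thus had values of opposite sign at 35 mM, and only Ttr was called.

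Among relatives of the 2 transporters 8 of 11 were tested. At 35 against 11.8 mM 1 was called, beside 0.863% of all genes. At 20 against 11.8 and 35 against 20 mM 0 were called, beside 0.185% and 0.0308%. By edgeR, an unadjusted p under 0.05 was found in 3, 1 and 2 of the 8, beside 10.5%, 7.97% and 5.29% of all genes. Slc7a3, another cationic amino acid transporter, rose at 35 mM by 1.43 ± 0.24 on the log2 scale (edgeR, adjusted p = 9.26e-04), with levels of 7.24 ± 0.917 and 19.5 ± 4.68 CPM, and had 0.74 ± 0.26 at 20 mM (adjusted p = 0.371). The third of this group, Slc7a1, had 0.41 ± 0.16 at 35 mM (adjusted p = 0.314), whereas Slc7a2 stood at -0.32. Slc38a2 and Slc38a4, relatives of Slc38a5, had 0.11 ± 0.14 and 0.26 ± 0.15 at 35 mM. Differences between these genes were not tested. Of 9 relatives of the transcription factors only Etv5 passed the expression filter, with 0.75 ± 0.22 at 35 mM (adjusted p = 0.131) beside 0.12 for Etv1. The Iroquois genes Irx3 and Irx5 had 4 counts each in all 9 libraries and Irx4 and Irx6 had none, so that Irx1 and Irx2 were the members of this family with counts to test.

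The genes lie, in GRCm38 with GENCODE M21 gene models, as follows. Gcg spans chromosome 2 from 62474530 to 62483650 on the minus strand, and Ttr chromosome 18 from 20665280 to 20674321 on the plus strand. Irx1 (71957921 to 71963723, minus) and Irx2 (72628820 to 72634198, plus) are both on chromosome 13. Pou3f4 (110814280 to 110817207, plus) and Slc38a5 (8271133 to 8280179, plus) are on chromosome X. Etv1 spans chromosome 12 from 38779380 to 38870484 and Slc7a2 chromosome 8 from 40862396 to 40922308, both on the plus strand.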

How the data were processed

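Libraries were made with CEL-Seq2, which tags the 3′ ends of transcripts, from 3 ng of RNA, per the labels' protocols. The deposited table holds raw read counts per gene in 27 barcoded sub-libraries. Per the submitters' processing notes, the authors used GRCm38.p4 and the tools TopHat, cutadapt, HTSeq and DESeq2. The annotation is not given in the sources used here, nor is the counting strand. Counts were not collapsed by molecular identifier (16 genes exceeded the 4096 possible identifiers), so intervals cover counting error only. A deposited sample sheet ties sub-libraries to samples, and 3 were summed per library. The 30 per-sample columns of other tables match no label and were not used. Of 22145 features, 92 spike-ins (0.0252% to 0.0322% of gene counts) and 5 summary lines (19.6% to 29.9% of reads) were left out. Symbols were matched for 21781 of 22048 genes in GENCODE M21.

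Tests used R 4.3.3 and edgeR 4.0.16 (TMM, filterByExpr, robust quasi-likelihood test) fitted to all 9 libraries with 1 mean per concentration (residual degrees of freedom: 6) and Benjamini-Hochberg adjustment over 9739 genes. Ratios used exact two-sided permutation tests, adjusted over 6 tests. The method was tested on simulated data. Those counts were drawn for the edgeR test with the mean levels and spread estimated here, so they cannot test how far that spread is technical. The genes and lists were chosen with earlier results of these data known. All 8 genes are named throughout. From each list the rule names up to 4 called genes, or the 2 with the smallest p, of which a part is printed; some listed genes are not reported here but stay in the counts. Pcsk2, Gcgr, Manf, Slc7a1, Slc38a2, Slc38a4 and genes with few counts were named outside it as background. Ucn3, Slc30a8, G6pc2, Nkx6-1, Pdx1, Gc and Tm4sf4 were named at 35 mM after their values were seen. The 21 alternatives were DESeq2 size factors, library sizes without Ins1 and Ins2, no filter, at least 10 CPM in 3 libraries, the Wald test of DESeq2 1.42.0, a replicate block, an acinar covariate, removal of 2 sub-libraries, only the 2 concentrations compared, each of 3 sub-library sets alone, and each of 9 libraries left out.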

Additional observations from a re-analysis of the deposited data

How the results depend on the processing

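DESeq2 size factors and library sizes without Ins1 and Ins2 moved the median of all genes by under 0.01 on the log2 scale, and 14 of 24 values of single genes changed sign in some alternative, none of them a call. The count of 84 genes called at 35 against 11.8 mM became 148 with no filter, 12, 42 and 39 with sub-library set 1, 2 or 3 alone, and 41 to 138 with 1 library left out. Of the 8 alpha cell genes 1 was called there, 0 with set 1 alone, and 0 to 1 with 1 library left out (0 without 35 mM replicate 3).

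At 20 against 11.8 mM the count of 18 became 51 with no filter, 57 with the DESeq2 Wald test, 11 with the acinar covariate, 11 with only the 2 concentrations, 2 and 8 with set 1 or 2 alone, and 7 to 35 with 1 library left out. Of the 8 genes, 0 were called without Ins1 and Ins2 in the library sizes, with at least 10 CPM in 3 libraries, with the replicate block, the acinar covariate, only the 2 concentrations, or set 1 or 3 alone, and 0 in each fit with 1 library left out. At 35 against 20 mM the count of 3 became 7 with the acinar covariate, 1 with each set alone and 1 to 7 with 1 library left out. The cause of these differences was not tested.

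Signs changed at 35 against 11.8 mM for Irx2 with the acinar covariate (0.016) and for Irx1 (0.15 and 0.088, sets 1 and 2) and Etv1 (-0.11, set 1). At 20 against 11.8 mM they changed for Irx2 with the acinar covariate (0.11) and without 2 sub-libraries (0.035). At 35 against 20 mM they changed for Slc7a2 (0.0049 with the replicate block, 0.025 without 2 sub-libraries, 0.37 and 0.0047 with sets 1 and 3), Pou3f4 (0.015 without 2 sub-libraries), Ttr (-0.15), Slc38a5 (0.20) and the Ttr to Gcg ratio (-0.038), all 3 with set 1, and Etv1 (0.10, set 2).

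With 1 library left out, values at 35 against 11.8 mM ranged from -0.21 to 0.13 for Irx2 and from -0.82 to 0.12 for Pou3f4. At 20 against 11.8 mM they ranged from -0.15 to 0.19 for Irx2, -0.070 to 0.47 for Irx1, -0.82 to 0.16 for Pou3f4 and -0.53 to 0.035 for Slc38a5. At 35 against 20 mM they ranged from -0.17 to 0.046 for Irx2, -0.29 to 0.28 for Pou3f4, -0.15 to 0.14 for Slc7a2 and -0.027 to 0.18 for Ttr. The Gcg to insulin ratio ranged from -0.32 to 0.021, from -0.22 to 0.11 and from -0.22 to 0.042 in these comparisons. Irx2 and Pou3f4 did not pass every filter and gave 16 to 18 values of 21.

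Libraries with the same replicate number did not deviate together (correlations of -0.15 to 0.05 in 9 pairs, 0 over 0.1), so the numbers pair nothing known. With the replicate block 74, 13 and 3 genes were called, Ttr having adjusted p = 0.0164 and 0.109 at 35 and 20 mM against 11.8 mM. In 3 of 3 pairs the Ttr to Gcg ratio was higher at 35 and at 20 mM than at 11.8 mM (exact sign-flip p = 0.25, the smallest 3 pairs allow). Any pairing would give this, since every library at raised glucose lay above every one at 11.8 mM, so it adds nothing to the unpaired ratios. The depth of 173 to 380 counts over all libraries limits Pou3f4, Irx2 and Irx1, whose standard errors were 0.26 to 0.41.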
